A study of Homo sapiens with 9 samples.

Results

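Knockdown of the long noncoding RNA TBX2-AS1 was compared with a non-targeting control in NLF cells, a human neuroblastoma line. The libraries were chosen by their labels: 3 had received an siRNA against TBX2-AS1 (siTBX2-AS1) and 3 a non-targeting siRNA (siNTC), which makes 6 of the 9 RNA-seq libraries of the study. The other 3 had received an siRNA against TBX2 (siTBX2) and enter as a second knockdown, which shares the siNTC libraries. All cells were labelled wild type, were of this single line, and were harvested 48 hours after siRNA. The labels call the 3 samples of each group biological replicates without saying how the cultures were kept apart, so the p values measure the spread between these samples. The series was made to study the role of this locus in the tumour.

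Neuroblastoma is a childhood tumour of the sympathetic branch of the neural crest. TBX2 encodes a T-box transcription factor that belongs to the transcription factor circuit of adrenergic neuroblastoma cells, and TBX2-AS1 is transcribed from the opposite strand of the same locus. An siRNA is a short duplex of which one strand, the guide, is loaded into an Argonaute protein and directs cleavage of fully matched RNA. A guide can also lower RNAs that match only its seed, the bases near its 5′ end, as a microRNA does, and such sites lie mostly in 3′ untranslated regions (3′ UTRs). The siRNA sequences, and whether single siRNAs or pools were used, are not given in the sources used here.

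Library depth ran from 31894280 counts in siTBX2-AS1 replicate 3 to 51434090 in siTBX2-AS1 replicate 1, and 25097 to 26680 genes had a count. Levels are given in CPM, counts scaled to a library total of 1e6 with TMM factors, and fold changes as log2 values, each followed by its standard error (SE). The cells carried the sympathetic transcription factors of the labelled lineage: HAND2 stood at 151.8 to 249.5 CPM in the 6 libraries and ISL1 at 67.0 to 105.2. TH, the first enzyme of catecholamine synthesis, was at 0 in all 6, and DBH, a later enzyme of that pathway, was at 0.57 to 1.44 CPM. Among markers of other cells, SOX10 (Schwann lineage), CDH5 and KDR (endothelium), CD3E (T cells) and KRT5 (epithelium) were at 0 in all 6 libraries. Other members of those lists were detected. MITF was at 9.16 to 17.6 CPM and PMEL at 1.25 to 3.10 (Schwann and melanocyte list), and VWF (endothelium) at 0.13 to 0.73. KRT18 was at 1.85 to 9.55 CPM and KRT8 at 0.53 to 2.16 (epithelium), and CD14 (leukocytes) at 0.43 to 1.05. The 6 fibroblast markers were all detected, with summed levels of 1010 to 1290 CPM in siNTC and 1017 to 1430 in siTBX2-AS1.

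The targeted RNA was read first. TBX2-AS1 (ENSG00000267280, chromosome 17, 61393456 to 61411555 on GRCh38, minus strand) was at 37.5, 34.0 and 37.4 CPM in siNTC replicates 1, 2 and 3, and at 4.71, 5.87 and 0.714 CPM in siTBX2-AS1. These levels rest on 1912, 1465 and 1654 counts against 244, 232 and 23. Every knockdown library was below every control, and 10.4% of the control level remained on average, from 1.97% in replicate 3 to 16.2% in replicate 2. The log2 fold change was -3.26 (SE 0.57, adjusted p = 0.0184, edgeR quasi-likelihood test with Benjamini-Hochberg adjustment). By an exact permutation test of the CPM values (two-sided) p was 0.1, which is the lowest value that 3 against 3 samples can reach. On the authors' FPKM scale the 3 knockdown libraries were closer together, at 0.903, 1.63 and 0.733 against 15.5 to 17.2 in siNTC. The fold change ranged from -3.71 to -2.79 when 1 library was left out, and the adjusted p was 0.0531 without siNTC replicate 1, 0.0505 without siNTC replicate 3 and 0.0651 without siTBX2-AS1 replicate 1. With only the 6 libraries of the comparison in the fit it was 0.0668.

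TBX2 itself (chromosome 17, 61399896 to 61409466, plus strand) lies inside the span of TBX2-AS1. It was at 275.9, 254 and 249 CPM in siNTC and at 173.5, 228 and 224 CPM in siTBX2-AS1, so all 3 knockdown libraries were lower, at 80.3% of the control mean. The log2 fold change of -0.32 (SE 0.11) did not pass the test (adjusted p = 0.172). In siTBX2, where TBX2 was the target, TBX2 was at 127.4, 110.1 and 112.8 CPM and TBX2-AS1 at 31.7, 38.7 and 36.5 CPM, within or near the control range. In the direct comparison TBX2 was 0.84 higher on the log2 scale in siTBX2-AS1 than in siTBX2 (SE 0.11, adjusted p = 0.00484). The kit keeps strand, but whether the counting used it was not given in the sources used here, so reads of the overlapping genes may have been shared.

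**Figure D1:**
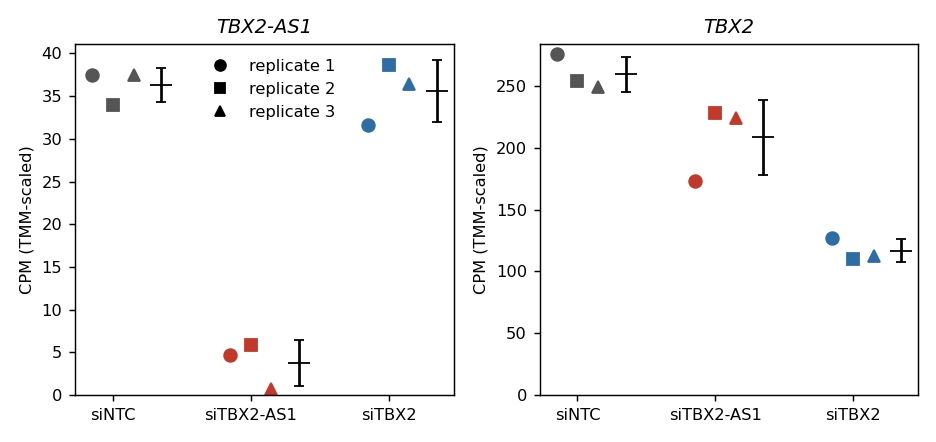
Levels of TBX2-AS1 (left) and TBX2 (right) in CPM in each of the 9 libraries, with the replicate number as symbol and the mean with SD (n = 3) as a bar beside each group. TBX2-AS1 was at 0.714 to 5.87 CPM in siTBX2-AS1 against 34.0 to 37.5 in siNTC, and TBX2 was at 173.5 to 228 CPM against 249 to 275.9.

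Of 18367 genes tested, 329 rose and 511 fell in siTBX2-AS1, which is 1.79% and 2.78% of the tested genes. A change of at least 2-fold was seen in 62 of the genes that rose and 112 of those that fell. The libraries of the 2 groups did not overlap for 4400 genes (24.0%), and 3377 genes had an unadjusted p under 0.05. All 840 called genes were among those without overlap, so a lack of overlap adds nothing to a call. The falls were in more abundant RNAs: the median control level was 77.1 CPM for genes that fell, 28.8 for genes that rose and 14.6 for all genes tested. The median log2 fold change was 0.60 among rises, -0.68 among falls and 0.01 over all genes. Protein-coding genes made up most calls, with 296 rises and 466 falls among 13315, or 2.22% and 3.5%. Of 2365 long noncoding genes, 18 rose and 16 fell.

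**Figure D2:**
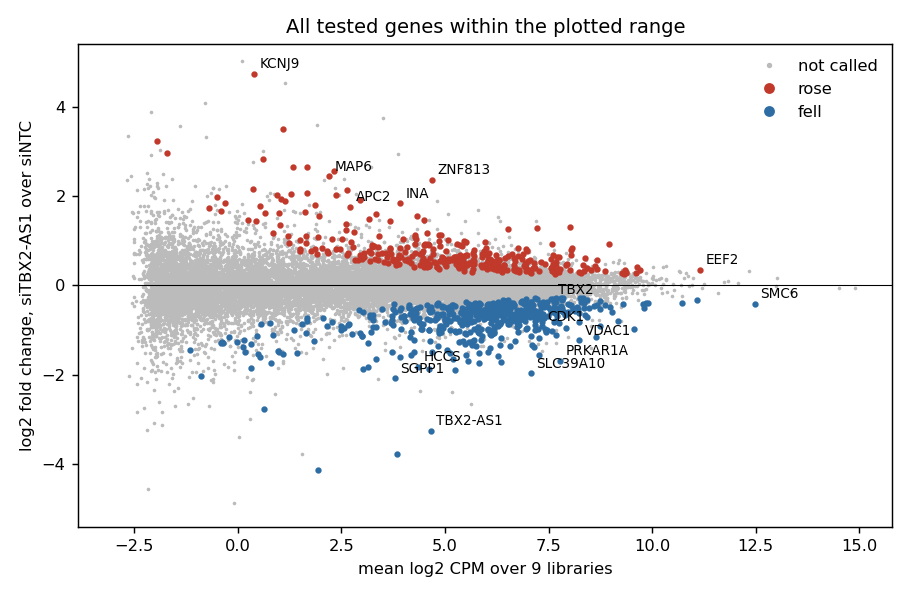
Log2 fold change of siTBX2-AS1 over siNTC against the mean log2 CPM over 9 libraries, each point a tested gene, with called rises in red and called falls in blue. The 511 falls lie further right than the 329 rises, with median control levels of 77.1 and 28.8 CPM.

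The number of calls depended on how the spread was estimated. Same-numbered replicates deviated together, and with the replicate number as a block 1741 genes were called, 824 up and 917 down, among them 327 of the 329 rises and 505 of the 511 falls given above. Without 1 library the count was 402 to 654, and 84 rises and 230 falls were called in all 9 such fits. Genes said below to be called in every such fit belong to these.

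The 3′ UTRs of the genes that fell shared a sequence. Sequences of 7 bases (7-mers) were ranked by their excess in them, observed minus expected sites over the square root of the expected. The expected number came from genes that were not called. TTAAACT ranked first, with 464 sites where 160.95 were expected. It was present in 304 of the 463 searched genes that fell (65.7%, exact Clopper-Pearson interval 61.1 to 70.0%, counting error only), in 2329 of 12281 genes not called (19.0%) and in 30 of 295 that rose (10.2%). Of the 87 searched genes that fell at least 2-fold, 72 had it (82.8%). The 7-mer was picked from these falls, so the shares describe them and are no test.

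TBX2-AS1 carries the same 7 bases. All 6 annotated TBX2-AS1 transcripts, 330 to 861 bases long, contain TTAAACT once, in their last exon and next to the 3′ end of the gene, whereas none of the 4 annotated TBX2 transcripts contains it. Of 17920 long noncoding transcripts in that range of lengths, 721 (4.02%) hold it. The site in TBX2-AS1, the first site in each of the 8 protein-coding genes among the 10 largest named falls, and that in 3 further falls (RB1, TNRC6B and CDK1) are printed from GENCODE 29 transcripts, 5′ to 3′, with the 7-mer in capitals, so that their flanks can be compared.
TBX2-AS1: acggcttttccaTTAAACTttaccccaaat
SGPP1: ctaagtgtttttTTAAACTatgggagtgta
SLC39A10: aaaaaaaatcatTTAAACTttaaaaatatt
ITGA2: aaaaagtaatctTTAAACTggctggcccag
MOCS2: atcttaactttgTTAAACTattattattga
HCCS: ctgagcgatacaTTAAACTattttccccag
GXYLT1: attttgtatgcaTTAAACTgtcttgccaaa
DEPDC1: ctgtgttagggaTTAAACTataattctgtt
SMIM13: actcttacaatgTTAAACTtgtaatcctgt
RB1: ctaaaggtgtatTTAAACTatcttgtgtga
TNRC6B: tcaacttcatttTTAAACTgtaaatcattg
CDK1: tagctttgggaaTTAAACTgttt
The flanking bases differ from one RNA to the next, and no longer stretch around the 7-mer is common to all 12. The windows were cut around the 7-mer, so that they share it was fixed by the choice. On GRCh38 the windows lie at chr17:61393459-61393488 (TBX2-AS1, minus strand), chr14:63685733-63685762 (SGPP1, minus), chr2:195735384-195735413 (SLC39A10, plus), chr5:53090838-53090867 (ITGA2, plus), chr5:53098548-53098577 (MOCS2, minus) and chrX:11121849-11121878 (HCCS, plus). The others are at chr12:42087063-42087092 (GXYLT1, minus), chr1:68476606-68476635 (DEPDC1, minus), chr6:11135975-11136004 (SMIM13, plus), chr13:48481362-48481391 (RB1, plus), chr22:40330085-40330114 (TNRC6B, plus) and chr10:60794821-60794843 (CDK1, plus). In the protein-coding genes each window is in the 3′ UTR part of the last exon. GRCh38 is the build of this annotation and not of the deposited tables.

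Genes with more sites were lower. The median log2 fold change was 0.05 for 10376 genes without a site, -0.09 for 2005 genes with 1 site, -0.19 for 489 with 2 and -0.25 for 169 with 3 or more. The share that fell went from 1.53% to 9.63%, 15.8% and 20.1%, while 2.55% of genes without a site rose. In siTBX2 against the same controls the medians of these 4 classes were 0.01, 0.02, -0.01 and -0.01, and in siTBX2-AS1 against siTBX2 they were 0.04, -0.10, -0.18 and -0.27. The gradient with the number of sites was thus present in both comparisons that include siTBX2-AS1, which share those 3 libraries. Of 135 searched genes that fell in siTBX2 against the same controls, 48 held TTAAACT (35.6%), a share above the 19.0% of genes not called in siTBX2-AS1 and below the 65.7% of its falls. Their median 3′ UTR was 2384 bases long, against 2227 for the falls in siTBX2-AS1 and 1350 for genes not called.

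**Figure D3:**
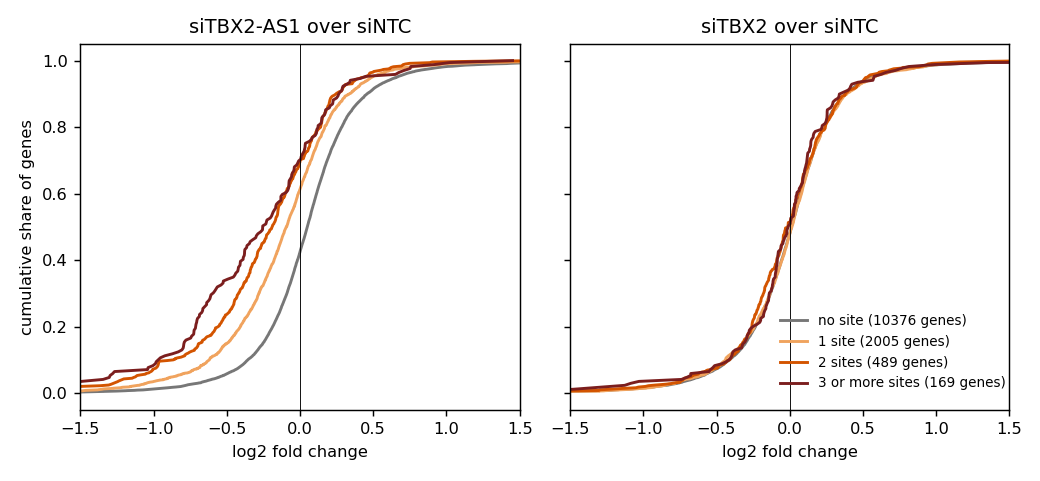
Cumulative share of genes against log2 fold change, for genes with 0, 1, 2 and 3 or more TTAAACT sites in the 3′ UTR, in siTBX2-AS1 over siNTC (left) and siTBX2 over siNTC (right). The 4 curves are apart on the left, with medians of 0.05, -0.09, -0.19 and -0.25, and lie together on the right.

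Longer 3′ UTRs held more sites, with a median of 1110 bases for genes without a site and 5721 for genes with 3 or more. Within each class of length the genes with a site were lower. Among 3′ UTRs under 500 bases, 17.6% of 108 genes with a site fell, against 1.18% of 2620 without, and at 4000 bases and over 9.2% of 902 fell, against 1.5% of 864. With the shortest annotated 3′ UTR of each gene in place of the longest, TTAAACT was in 33.5% of the falls and 7.86% of genes not called. Genes called lower with the replicate block held it in 56.5% of cases.

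Genes with any site followed by A, the base that microRNA sites often carry there, were lower than the rest. There were 674 of them, of which 18.4% fell, and their median log2 fold change was -0.22. In 1989 genes whose sites were never followed by A, 9.05% fell and the median was -0.08. A gene with more sites has more ways to enter the first class, and the classes were not matched for the number of sites. The second 7-mer in rank was TAAACTA, which overlaps the first and was in 49.5% of the genes that fell and 12.6% of those not called. It had 318 sites where 98.92 were expected, a higher ratio than that of TTAAACT. In TBX2-AS1 the base after the 7-mer is T. No mature human microRNA of the RefSeq set used here has a seed that pairs with TTAAACT. Because the guide sequence is not known here, its part in these falls was not tested.

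Among genes with a mean log2 CPM of 2 or more, the 10 largest falls were TBX2-AS1, 8 protein-coding genes, all with the 7-mer, and RNY1, which has no 3′ UTR to search. SGPP1, the phosphatase that removes phosphate from sphingosine 1-phosphate, was at 22.45, 20.2 and 19.7 CPM in siNTC and 4.52, 5.82 and 4.47 in siTBX2-AS1. It was 4.21-fold lower (log2 -2.07, SE 0.13, adjusted p = 0.000315), and the 2 groups were far apart. SLC39A10, a zinc importer of the plasma membrane, was at 183, 205 and 176 CPM in siNTC and 39.4, 62.9 and 41.6 in siTBX2-AS1, 3.92-fold lower (log2 -1.97, SE 0.19, adjusted p = 0.00138). HCCS, which attaches haem to mitochondrial cytochromes c, was at 29.4, 26.7 and 24.3 CPM against 7.75, 8.25 and 6.70 (log2 -1.82, SE 0.12, adjusted p = 0.000315). These 3 genes were lower in every knockdown library than in any control and were called in every fit without 1 library.

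MOCS2, which encodes the subunits of molybdopterin synthase, was at 38.5, 34.9 and 25.8 CPM in siNTC and 9.95, 8.12 and 9.10 in siTBX2-AS1 (log2 -1.87, SE 0.16, adjusted p = 0.000885). ITGA2, the collagen-binding integrin alpha-2 chain and its neighbour on chromosome 5, was at 62.7, 51.8 and 40.8 CPM against 12.25, 18.3 and 10.96 (log2 -1.90, SE 0.41, adjusted p = 0.0379). The ITGA2 call was lost in 7 of the 9 fits without 1 library, and its levels in siTBX2 ranged widely, from 21.6 to 69.6 CPM. GXYLT1, a xylosyltransferase that extends O-glucose on Notch receptors, was 3.36-fold lower (log2 -1.75, SE 0.12). DEPDC1, a protein found in dividing cells, was 3.29-fold lower (log2 -1.72, SE 0.16), and the small membrane protein SMIM13 was 3.25-fold lower (log2 -1.70, SE 0.12). RNY1, a Y RNA bound by the Ro protein, was at 18.4, 7.19 and 10.3 CPM against 3.21, 4.10 and 2.86 (log2 -1.82, SE 0.33, adjusted p = 0.0180), with a wide spread in the control. AMIGO3, a membrane protein with leucine-rich repeats, is under that limit of level and was chosen after its values were seen. It was at 3.96, 4.55 and 10.1 CPM in siNTC and 0.155, 0.633 and 0.279 in siTBX2-AS1, a larger fall than in these genes (log2 -4.13, SE 0.57, adjusted p = 0.00666), and its 3′ UTR has no TTAAACT.

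Set directly against siTBX2, these genes were also lower. SGPP1 differed by -1.66 on the log2 scale (adjusted p = 0.000539), SLC39A10 by -1.83 (0.00166), HCCS by -1.83 (0.000257), MOCS2 by -1.79 (0.000784) and DEPDC1 by -2.07 (0.000584), all by the same edgeR fit. In all, 1015 genes (5.53%) differed between the 2 knockdowns. Of the falls chosen after their values were seen, PRKAR1A, the regulatory subunit of protein kinase A, was at 293, 300.0 and 274 CPM in siNTC and 57.7, 119.9 and 91.7 in siTBX2-AS1 (log2 -1.69, SE 0.23, adjusted p = 0.0062), with 3 sites in its 3′ UTR. PRKACB, a catalytic subunit of the same kinase, was at 122 to 129.5 CPM against 36.6 to 57.0 (log2 -1.36, SE 0.15, adjusted p = 0.0024).

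Several of the leading rises were in genes of neurons. MAP6, which stabilises microtubules in axons, was at 1.81, 1.79 and 2.08 CPM in siNTC and 12.02, 7.29 and 11.5 in siTBX2-AS1, 5.42-fold higher (log2 2.44, SE 0.25, adjusted p = 0.00162). APC2, a neuronal relative of APC that binds microtubules, was at 3.06, 3.53 and 4.39 CPM against 11.1, 10.8 and 15.3 (log2 1.76, SE 0.22, adjusted p = 0.00423). INA, the neurofilament protein alpha-internexin, was at 7.515, 7.91 and 7.445 CPM against 28.9, 23.6 and 29.2 (log2 1.84, SE 0.12, adjusted p = 0.000315). All 3 were above the control range in each knockdown library and were called in every fit without 1 library. Not all leading rises were neuronal by name. ZNF813, a zinc finger protein of chromosome 19, was at 10.7, 12.1 and 8.58 CPM in siNTC and 46.8, 57.5 and 57.5 in siTBX2-AS1 (log2 2.36, SE 0.16, adjusted p = 0.000315). TMEM198, a membrane protein, was 4.41-fold higher (log2 2.14, SE 0.24), and SLC2A3, the glucose transporter GLUT3 that is abundant in neurons, was at 11.7, 9.28 and 13.4 CPM against 45.0, 34.1 and 21.5 (log2 1.55, SE 0.26, adjusted p = 0.0127).

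Genes known to be repressed by REST, the factor that silences neuronal genes outside neurons, were mostly higher. Of 33 tested members 10 rose and none fell, where 1.79% of all genes rose, and 31 had a log2 fold change above 0. Their median was 0.86, against 0.01 for all genes, and per knockdown library, relative to the control mean, it was 0.74, 0.74 and 0.82. INA, AP3B2 and MIAT were in the list with their rise already known, and without them 7 of 30 members rose with a median of 0.70. The count of 10 was 16 with the replicate block and 5 to 10 when 1 library was left out, with none falling in any of those fits. Over all settings run the median of the list ranged from 0.34 to 0.86.

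RUNDC3A, a RUN domain protein of neurons, was at 0.412, 1.25 and 0.747 CPM in siNTC and 4.64, 6.12 and 4.25 in siTBX2-AS1, 6.24-fold higher (log2 2.64, SE 0.42, adjusted p = 0.0108). CHRNB2, a subunit of neuronal nicotinic receptors, was chosen after its values were seen. It was at 0.137, 0.998 and 0.181 CPM against 3.84, 4.20 and 6.86 (log2 3.51, SE 0.70, adjusted p = 0.0285). SYP, the synaptic vesicle protein synaptophysin, was at 1.71, 2.51 and 1.38 CPM against 5.52, 7.39 and 6.52 (log2 1.80, SE 0.30, adjusted p = 0.0136). In each of these 3 genes the knockdown libraries lay above all controls, from low control levels. AP3B2, the neuronal beta subunit of the AP-3 adaptor, was at 6.14, 7.29 and 4.82 CPM against 18.6, 16.5 and 19.8 (log2 1.59, SE 0.20, adjusted p = 0.00396). SYT4, a synaptotagmin of dense-core vesicles, was at 22.1, 21.7 and 16.9 CPM against 37.9, 40.9 and 35.6 (log2 0.92, SE 0.16, adjusted p = 0.0158). MIAT, a long noncoding RNA of the nervous system, was at 3.22, 3.04 and 3.85 CPM against 13.8, 7.80 and 16.6 (log2 1.92, SE 0.29, adjusted p = 0.00915). The groups did not overlap in any of the 10, as in every called gene, nor in 9 other members of the list. In all, 19 of 33 did not overlap, all upward, against 24.0% of all genes. BSN, a scaffold of the presynaptic active zone, rose by 1.62 and VGF, a neuropeptide precursor, by 0.89. The VGF call was lost in 8 of 9 fits without 1 library, that of SYT4 in 3 and that of SYP in 1. The CHRNB2 call was also not kept in all of these fits.

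**Figure D4:**
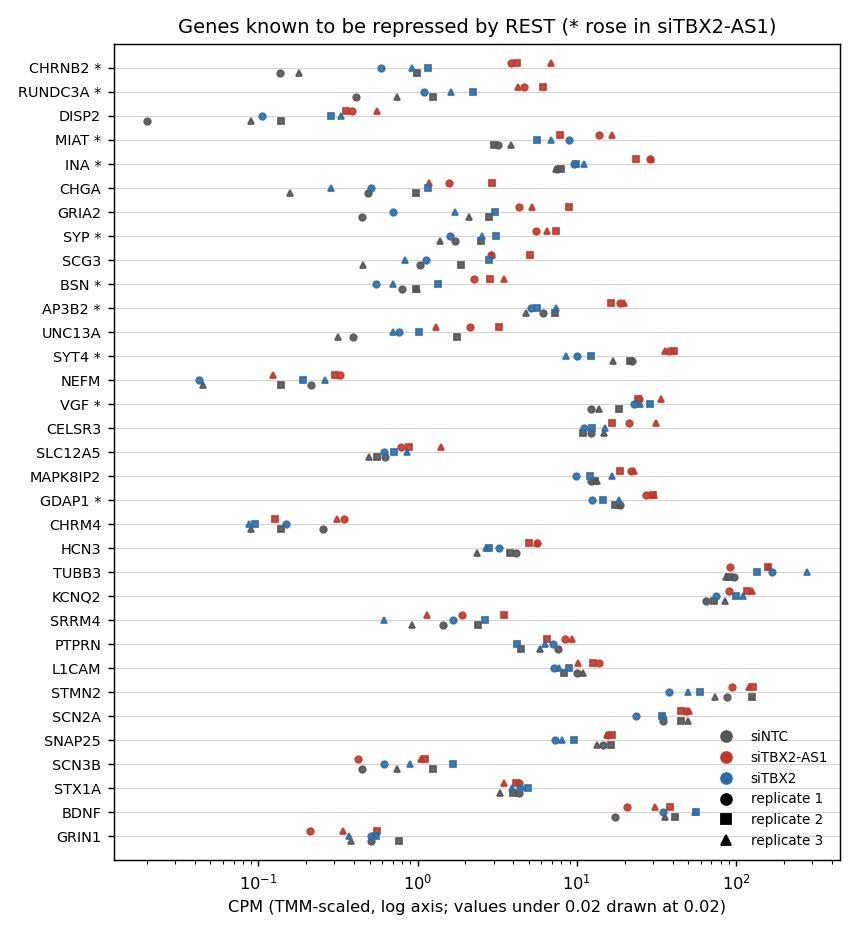
CPM of the 33 tested genes known to be repressed by REST in each of the 9 libraries on a log axis, ordered by log2 fold change, with siTBX2-AS1 in red, siNTC in grey and siTBX2 in blue. The 10 genes marked with a star rose, and 31 of the 33 had a log2 fold change above 0.

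Not every member passed the test. TUBB3, the neuronal beta-tubulin, was at 97.7, 90.4 and 86.2 CPM against 92.1, 159.7 and 161.8, with the lowest knockdown library inside the control range (log2 0.59, SE 0.29, adjusted p = 0.334). REST itself varied more between replicates than between groups. REST was at 9.44, 19.9 and 53.2 CPM in siNTC and 8.33, 51.2 and 42.3 in siTBX2-AS1 (log2 0.30, SE 0.78, adjusted p = 0.888). Of 17 tested genes of REST and its cofactors 1 was called, where 1.79% of all genes rose and 2.78% fell. This was CTDSP2, a phosphatase that acts with REST, at 85.9, 83.7 and 79.5 CPM against 123.4, 111.6 and 107.0 (log2 0.46, SE 0.09, adjusted p = 0.0248). It rose, in a call lost in 7 of 9 fits without 1 library, and with the replicate block 2 of the 17 did.

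Set against siTBX2, 9 of the 33 REST-repressed genes were higher in siTBX2-AS1 and none lower, where 5.53% of all genes differed in either direction, and the median was 0.84. In siTBX2 against the same controls the list had a median of 0.04. INA was higher than in siTBX2 by 1.42 (adjusted p = 0.000699), SYT4 by 1.89 (0.000709), AP3B2 by 1.59 (0.00325) and SYP by 1.42 (0.0297), all from edgeR. SYT4 itself fell in siTBX2 over siNTC (log2 -0.98, adjusted p = 0.0282, edgeR), which is part of its difference between the knockdowns. RUNDC3A (1.595, adjusted p = 0.0553), CHRNB2 (2.47, 0.0704) and MIAT (0.84, 0.129) did not pass that test, and MIAT was at 5.59 to 8.91 CPM in siTBX2, between the other groups. RefSeq promoters of GRCh38.p14, from 250 bases before to 50 after the start, were matched for 25 of the list, and both strands were searched for the left and right parts of the REST element. The left part TTCAGCACC was in 3 of the 25 (CELSR3, SCG3 and UNC13A) and in 0.4% of all promoters. The right part GGACAGC was in 5 of the 25 (BSN, VGF and the same 3) and in 6.11% of all promoters. None of the 8 matched members that rose held the left part in this window.

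Other neuronal lists share genes with the REST list and had more rises than falls, where 1.79% of all genes rose and 2.78% fell. Here and in the paragraphs on later lists BSN, DPYSL3, DPYSL5, SYT1, E2F1, SLC30A6 and MTF1, called members of lists with more than 4 calls, were named after their values were seen. Of 33 tested genes of the neuronal cytoskeleton and axon growth 5 rose and 1 fell, with a median of 0.35. Beside MAP6, INA and APC2 the rises were STMN3, a stathmin, at 177.5, 178.6 and 179.6 CPM in siNTC and 242, 228 and 241 in siTBX2-AS1 (log2 0.41, SE 0.06, adjusted p = 0.00814), and DPYSL3, which guides growth cones. The fall was DPYSL5, a relative of DPYSL3 with 1 TTAAACT site (log2 -0.60, SE 0.10, adjusted p = 0.0125). With the replicate block 10 rose and 2 fell. Of 30 synaptic vesicle and exocytosis genes 5 rose and 1 fell, with a median of 0.33. CADPS, which primes dense-core vesicles, was at 2.94, 2.85 and 2.92 CPM against 6.37, 6.23 and 5.77, with little spread within either group (log2 1.08, SE 0.13, adjusted p = 0.00394). SYT1, the main calcium sensor of vesicle release, fell by 0.37 (adjusted p = 0.0217) and had 2 TTAAACT sites.

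Voltage-gated ion channels had 2 rises and 1 fall among 25 tested genes, and 7 rises with the replicate block. In the main fit 1.79% of all genes rose and 2.78% fell. HCN2, a pacemaker channel, was at 0.648, 0.487 and 0.498 CPM in siNTC and 2.53, 2.15 and 2.64 in siTBX2-AS1 (log2 2.16, SE 0.22, adjusted p = 0.00147). CACNA2D1, a calcium channel subunit with 4 TTAAACT sites, was at 131, 175 and 168 CPM against 68.7, 100.04 and 104 (log2 -0.79, SE 0.18, adjusted p = 0.0415), and this call was lost in 8 of 9 fits without 1 library. KCNJ9, a potassium channel opened by G proteins, was outside the naming rule and was chosen after its values were seen. It was at 0.0589, 0.139 and 0.204 CPM in siNTC, 0.0877 to 0.167 in siTBX2 and 4.13, 3.57 and 3.07 in siTBX2-AS1. It passed the filter on low counts through the siTBX2-AS1 libraries, so no test is given for it. CELF3, a splicing regulator of neurons chosen in the same way, was at 0.294, 0.603 and 0.566 CPM in siNTC and 2.70, 3.92 and 3.79 in siTBX2-AS1 (log2 2.83, SE 0.35, adjusted p = 0.0042).

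Noradrenergic and secretory genes were mixed, with 3 rises, 1 fall and a median of 0.32 among 18 tested genes. With the replicate block they had 7 rises and 2 falls. In the main fit 1.79% of all genes rose and 2.78% fell. MAOB, which degrades monoamines, was at 14.6, 13.9 and 15.1 CPM in siNTC and 31.9, 26.2 and 28.7 in siTBX2-AS1 (log2 0.99, SE 0.15, adjusted p = 0.0099). SCG2, a granin of dense-core vesicles, was at 239, 286 and 219 CPM against 371, 412 and 356 (log2 0.62, SE 0.10, adjusted p = 0.0140). SLC6A2, the noradrenaline transporter, fell by 0.79 (SE 0.18, adjusted p = 0.0456), a call lost in 8 of 9 fits without 1 library. Among 24 adrenergic transcription factors only MYCN, the oncogene amplified in many neuroblastomas, was called. MYCN was at 234, 287 and 269 CPM in siNTC and 348, 347 and 343 in siTBX2-AS1 (log2 0.39, SE 0.08, adjusted p = 0.0258), and higher still in siTBX2, at 419 to 449. The MYCN call was lost in 6 of 9 fits without 1 library and that of SCG2 in 2. The median of that list was 0.02.

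Mesenchymal neuroblastoma genes had 1 rise and 3 falls among 29, where 1.79% of all genes rose and 2.78% fell, and all 3 falls had the 7-mer, as 65.7% of all searched falls did. TEAD1, the DNA-binding partner of YAP, was at 152, 137 and 177 CPM in siNTC and 71.8, 78.2 and 85.8 in siTBX2-AS1 (log2 -0.98, SE 0.11, adjusted p = 0.00256). CBFB, the partner of RUNX factors, was at 186, 180 and 178 CPM against 107, 119 and 114 (log2 -0.68, SE 0.08, adjusted p = 0.00277). In matrix and integrin genes 1 of 35 rose and 3 fell, and the falls were the integrin alpha chains ITGA1, ITGA2 and ITGAV, each with the 7-mer. ITGA1, a collagen receptor chain, was at 261, 196 and 239 CPM against 129, 109 and 118.5 (log2 -0.97, SE 0.11, adjusted p = 0.00256), and it was as low in siTBX2, at 106 to 108. ITGAV fell by 0.44 (SE 0.06, adjusted p = 0.00762). COL1A1, the chain of type I collagen that also counts among the fibroblast markers, was at 84.9, 76.8 and 96.8 CPM against 146.7, 110.8 and 152 (log2 0.66, SE 0.14, adjusted p = 0.0321), and the other 5 fibroblast markers did not pass the test. The COL1A1 call was lost in 6 of 9 fits without 1 library.

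**Figure D5:**
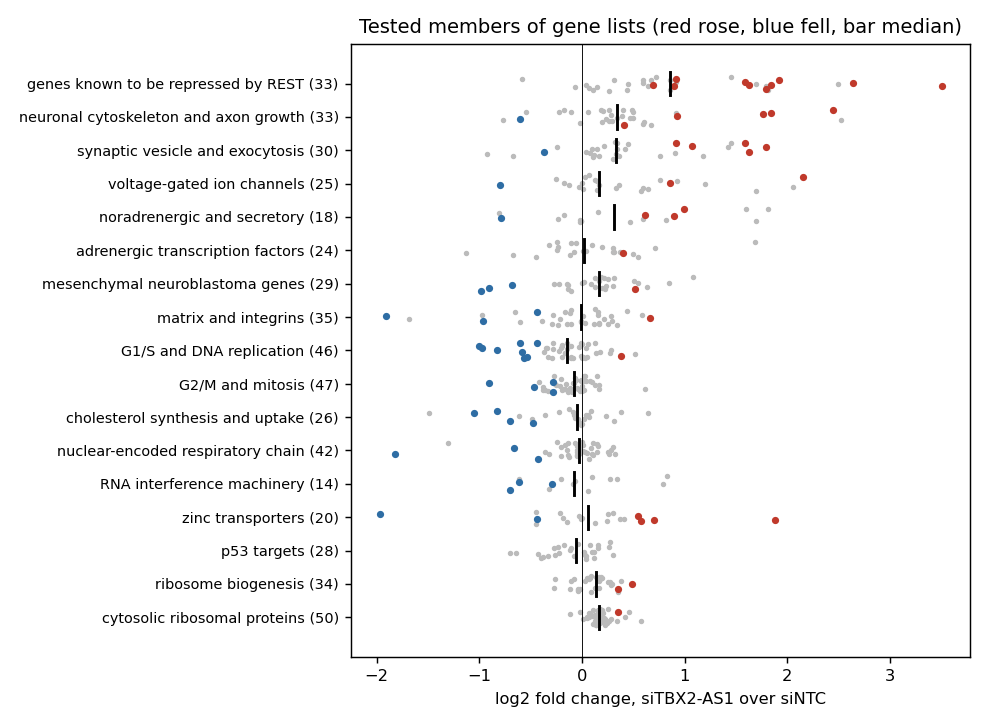
Log2 fold change of siTBX2-AS1 over siNTC for the tested members of 17 gene lists, with called rises in red, called falls in blue, other members in grey and the list's median as a black bar (number of tested members in brackets). The REST-repressed list has its median at 0.86, with 10 rises and no fall, and the G1/S list at -0.15, with 1 rise and 8 falls.

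Among genes of the cell cycle falls outnumbered rises, as they did over all genes (2.78% fell and 1.79% rose). Of 46 tested genes of G1/S and DNA replication 8 fell and 1 rose, with a median of -0.15, and 12 fell and 3 rose with the replicate block. RRM1, the large subunit of ribonucleotide reductase, was at 328, 325 and 340.5 CPM in siNTC and 211, 230.4 and 229.7 in siTBX2-AS1 (log2 -0.57, SE 0.06, adjusted p = 0.00178). CHAF1B, which deposits histones behind the replication fork, was at 64.5, 65.1 and 66.4 CPM against 41.5, 41.4 and 46.4 (log2 -0.60, SE 0.08, adjusted p = 0.00488). SLBP, which binds the stem-loop of histone mRNAs, fell by 0.83 (SE 0.14, adjusted p = 0.0157). The rise was E2F1, a transcription factor of this programme, at 125.5, 126 and 145.7 CPM against 177, 158 and 183 (log2 0.38, SE 0.09, adjusted p = 0.0462). The SLBP call was lost in 2 of 9 fits without 1 library. Of the 8 falls 5 had the 7-mer, near the 65.7% of all searched falls. Members with it had a median of -0.43 and members without it one of -0.11, a split that is no test because the 7-mer was picked from the falls.

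Of 47 genes of G2/M and mitosis 4 fell and none rose, against 2.78% and 1.79% of all genes, and 8 fell with the replicate block. CDK1, the kinase that starts mitosis and whose site is printed above, was at 187, 197 and 166 CPM in siNTC and 89.1, 102 and 102 in siTBX2-AS1 (log2 -0.91, SE 0.09, adjusted p = 0.00114). The other falls were small and had no site: ANLN, a scaffold of the cytokinetic ring, fell by 0.47 (adjusted p = 0.0338), CCNB1, the cyclin partner of CDK1, by 0.29 (adjusted p = 0.0400) and DLGAP5, a spindle protein, by 0.29 (adjusted p = 0.0487). All 3 calls were lost in 5 or more of the 9 fits without 1 library. Against siTBX2, 9 of the 47 were lower and none higher, where 5.53% of all genes differed in either direction. CDK1, lower by 1.05 (adjusted p = 0.000591), and CCNB1, by 0.62 (adjusted p = 0.00133), were among them. In siTBX2 over siNTC the list had a median of 0.12, and CCNB1 rose by 0.34 (adjusted p = 0.0439, edgeR), which is part of its difference between the knockdowns. RB1, the retinoblastoma protein that restrains S-phase entry, was at 183.5, 177 and 173 CPM against 105.7, 109.5 and 92.8 (log2 -0.79, SE 0.08, adjusted p = 0.00114) and was the only call among 16 CDKs, cyclins and CDK inhibitors. None of 17 subunits and regulators of the anaphase-promoting complex was called by edgeR, with 4 at an unadjusted p under 0.05, 1 rise and 1 fall under the block and 2 falls by DESeq2.

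Several of the most abundant RNAs were lower by 1.26-fold to 1.43-fold. H1-5, a linker histone, was at 1142, 936 and 1021 CPM in siNTC and 729, 716 and 722 in siTBX2-AS1 (log2 -0.52, SE 0.08, adjusted p = 0.00872). NUCKS1, a nuclear phosphoprotein with 3 TTAAACT sites, was 1.31-fold lower, and so was the chaperone HSP90AB1, without a site, at 1728, 1782 and 1720 CPM against 1274, 1418 and 1297. SMC6, of the SMC5/6 complex, fell by 0.41 and ACTB, cytoplasmic beta-actin, by 0.34. These 5 genes (H1-5, NUCKS1, HSP90AB1, SMC6 and ACTB) were called in every fit without 1 library. In the other direction EEF2, the elongation factor that moves the ribosome along, was at 2107, 2029.6 and 1959 CPM against 2754, 2569 and 2425 (log2 0.35, SE 0.06, adjusted p = 0.0124). RPSA, of the small ribosomal subunit, rose by 0.35 (SE 0.06, adjusted p = 0.0119) and was the only call in a list of 50 ribosomal protein genes, 48 of which lay above 0 with a median of 0.16. RPS15A, also of the small subunit but not in that list, rose by 0.29 (adjusted p = 0.0263), a call lost in 7 of 9 fits without 1 library. The EEF2 call was lost in 3 such fits and that of RPSA in 1. Of 34 genes of ribosome biogenesis RRP12 and FBL rose, by 0.49 and 0.35, where 1.79% of all genes rose. The FBL call was lost in 8 of the 9 fits.

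RNA interference genes included 3 falls among 14 tested, all with the 7-mer, where 2.78% of all genes fell and 65.7% of all searched falls held it. TNRC6B, the scaffold that links Argonaute to deadenylases, was at 140, 148 and 159 CPM in siNTC and 85.8, 86.6 and 102 in siTBX2-AS1 (log2 -0.70, SE 0.10, adjusted p = 0.00808). DICER1, which cuts microRNA precursors, was at 180, 197 and 178.5 CPM against 100.2, 125 and 138 (log2 -0.61, SE 0.14, adjusted p = 0.0407). XPO5, which exports these precursors from the nucleus, was at 145, 154 and 150 CPM against 120.0, 126.5 and 119 (log2 -0.30, SE 0.06, adjusted p = 0.0290). The groups did not overlap in any of the 3, as in every called gene, and the DICER1 and XPO5 calls were each lost in 7 of 9 fits without 1 library.

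Cholesterol synthesis and uptake had 4 falls and no rise among 26, against 2.78% and 1.79% of all genes, and all 4 falls had the 7-mer, as 65.7% of all searched falls did. HMGCS1, the synthase that makes HMG-CoA, was at 96.8, 120 and 100.4 CPM in siNTC and 58.8, 60.3 and 60.1 in siTBX2-AS1 (log2 -0.82, SE 0.10, adjusted p = 0.00358). STARD4, a sterol carrier, was at 394, 414 and 398 CPM against 208, 269 and 267 (log2 -0.70, SE 0.10, adjusted p = 0.00709). DHCR7, the last enzyme of the pathway, was 2.07-fold lower (adjusted p = 0.0229), and CYP51A1, lanosterol demethylase, 1.39-fold lower (adjusted p = 0.0435). The 10 members with the 7-mer had a median of -0.54 and the others one of 0.00. These falls were among those from which the 7-mer was picked, so the split is no test. With the replicate block 6 fell and 2 rose. Of 9 fits without 1 library, 7 lost the CYP51A1 call and 5 that of DHCR7.

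Zinc handling changed on both sides. Beside SLC39A10, the zinc exporter SLC30A6 fell by 0.44 (adjusted p = 0.0235), and both had the 7-mer. Metallothioneins, which bind zinc and are induced by it through MTF1, rose: MT2A was at 9.52, 9.004 and 8.83 CPM in siNTC and 14.3, 16.2 and 14.1 in siTBX2-AS1 (log2 0.71, SE 0.11, adjusted p = 0.00982). MT1X was at 5.97 to 6.38 CPM against 8.60 to 9.54 (log2 0.58, SE 0.11, adjusted p = 0.0225), and MT1E at 1.09 to 1.63 CPM against 4.02 to 5.79 (log2 1.88, SE 0.34, adjusted p = 0.0189). MTF1 rose by 0.55 (SE 0.11, adjusted p = 0.0330) although its 3′ UTR has 1 TTAAACT site. That made 4 rises and 2 falls among 20 tested genes, where 1.79% and 2.78% of all genes did so. Of 9 fits without 1 library, 6 lost the MT1X call and 4 that of MT1E. Metallothioneins are close paralogues, and reads shared between them may have been split by the counting.

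Among 42 nuclear-encoded respiratory chain genes 3 fell and none rose, against 2.78% and 1.79% of all genes. SDHD, a membrane anchor of complex II, was at 69.0, 69.3 and 74.0 CPM against 50.4, 40.1 and 43.5 (log2 -0.66, SE 0.14, adjusted p = 0.0326), and HCCS is given above. The SDHD call was lost in 5 of 9 fits without 1 library. A pair of mitochondrial outer membrane genes chosen after their values were seen moved apart. VDAC1, the main channel of that membrane, was at 460, 379 and 376 CPM in siNTC and 185, 175 and 159 in siTBX2-AS1 (log2 -1.23, SE 0.10, adjusted p = 0.00056), and TOMM20, a receptor for imported proteins, was at 253, 334 and 320 CPM against 533, 590 and 608 (log2 0.93, SE 0.11, adjusted p = 0.00358). Of 23 genes of sphingolipid metabolism, SGPP1 fell and S1PR2, a receptor for sphingosine 1-phosphate, rose by 0.63 (SE 0.14, adjusted p = 0.0415), a call lost in all 9 fits without 1 library.

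Several genes that rose in siTBX2-AS1 also rose in siTBX2. TOMM20 was 1.016 above siNTC there, on the log2 scale, MAOB 1.55 (0.99 in siTBX2-AS1), SCG2 0.57, EIF3B, a subunit of an initiation factor, 0.55 (0.42 in siTBX2-AS1), and MCFD2, a cargo receptor adaptor chosen after its values were seen, 1.22 (0.84 in siTBX2-AS1). None of these 5 passed the edgeR test between the knockdowns, with siTBX2-AS1 minus siTBX2 differences of -0.08 (SE 0.11), -0.56 (SE 0.15), 0.04 (SE 0.10), -0.13 (SE 0.07) and -0.38 (SE 0.13). That does not show equal levels: MAOB was at 34.8 to 52.5 CPM in siTBX2 and MCFD2 at 144 to 151, above every siTBX2-AS1 library. Both knockdowns were set against the same 3 controls. In the 3′ UTRs of genes that rose, the 7-mer of rank 1 was TGGGGTG (in 26.8% of them against 18.5% of genes not called), that of rank 2 was CCCCCAC (27.8% against 18.6%) and that of rank 3 was AGACGTA (6.78% against 1.66%). In this order, the median log2 fold change of genes with them was 0.06, 0.07 and 0.11 in siTBX2-AS1 and 0.01, 0.01 and 0.08 in siTBX2, both against siNTC. Between the knockdowns it was 0.05, 0.06 and 0.00.

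The p53 targets gave no call by edgeR, DESeq2 or limma. All 28 tested genes overlapped between the groups, where 24.0% of all genes did not, none had an unadjusted p under 0.05, and the median was -0.06, with 2 rises under the replicate block. Their summed level followed the replicate number, at 1476, 2205 and 3016 CPM in siNTC replicates 1, 2 and 3 and 1459, 2072 and 2671 in the same replicates of siTBX2-AS1. Apoptosis genes had 1 rise and 1 fall among 25. Beside this list and those that follow, 1.79% of all genes rose and 2.78% fell. BMF, a BH3-only activator of cell death, was at 21.5, 23.1 and 18.3 CPM against 45.4, 35.7 and 34.7 (log2 0.88, SE 0.16, adjusted p = 0.0196). Of 22 genes of the integrated stress response PHGDH and SHMT2, of serine and glycine synthesis, rose by 0.32 and 0.33, and 5 rose with the replicate block. Of 25 endoplasmic reticulum chaperones PDIA4 rose by 0.48 and PDIA3 fell by 0.42, the latter with the 7-mer. Of 9 fits without 1 library, the SHMT2 call was lost in all, those of PHGDH and PDIA3 in 8, that of PDIA4 in 6 and that of BMF in 4. Of 30 interferon-stimulated genes 2 rose. TAP1, a peptide transporter of antigen presentation, was among these, at 0.039 to 0.0928 CPM in siNTC and 0.217 to 0.831 in siTBX2-AS1. It passed the filter on low counts mostly through siTBX2-AS1 libraries, so no test is given for it and no weight rests on its call. The TAP1 call was lost with the replicate block and in 8 of 9 fits without 1 library.

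Around TBX2 on chromosome 17, 21 genes were tested, of which 1 rose and 2 fell, against 1.79% and 2.78% of all genes. TBX2-AS1 was one of the falls and RPS6KB1, the S6 kinase, the other, at 63.7, 66.2 and 60.4 CPM in siNTC and 49.7, 46.0 and 47.9 in siTBX2-AS1 (log2 -0.41, SE 0.07, adjusted p = 0.0190), with 1 TTAAACT site. DHX40, a helicase, was at 165, 164 and 216 CPM against 343, 258 and 366.5 (log2 0.83, SE 0.15, adjusted p = 0.0179). Both the RPS6KB1 and the DHX40 call were lost in 4 of 9 fits without 1 library. The 7 neighbours with the 7-mer had a median of -0.31 and those searched without it one of 0.11. Because the 7-mer was picked from falls in the same data, this describes them and is no test.

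Called pseudogenes were often called together with their parents. Of 19 that were called, 12 had a tested parent by name, and 8 of those parents were called in the same direction. The log2 fold change was -1.54 in both VDAC1P1 and VDAC1P6 beside -1.23 in VDAC1, -1.86 in FKBP9P1 beside -1.48 in FKBP9, -1.504 in TWF1P1 beside -1.38 in TWF1, and 1.08 in DHX40P1 beside 0.83 in DHX40. Reads of these near-identical copies can be assigned to either member, so their values are uncertain.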

How the data were processed

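Total RNA of 9 NLF libraries (3 groups of 3) was sequenced after removal of ribosomal RNA with a stranded kit, per the labels' protocols. The authors deposited expected counts per gene, as whole numbers that were not scaled, and FPKM values per gene. FastQC, STAR 2.4.2a, StringTie 1.3.3 and build hg19 are named, with no roles, per the submitters' processing notes. The annotation, the counting program and its use of strand are not given in the sources used here.

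From the counts, 18367 of 57757 genes passed filterByExpr. A quasi-likelihood model (edgeR 4.0.16, robust, TMM scaling, R 4.3.3) was fitted to all 9 libraries, siTBX2-AS1 was set against siNTC, and calls needed a Benjamini-Hochberg adjusted p under 0.05. Alternatives used DESeq2 1.42.0, limma 3.58.1 (also on log2(FPKM + 0.1) and log2(FPKM + 1)), other scalings and filters, the replicate block and leaving out each library. Same-numbered siNTC and siTBX2-AS1 libraries carry the same replicate number in the labels, and their deviations from the group means correlated at 0.193, 0.104 and 0.243, against -0.187 to -0.00406 for other pairs. The fit was tested on simulated data: of 100 genes changed by 1.0 on the log2 scale, 37% were called, and of 100 changed by 0.5 none. The simulation gave 39 calls against 840 in the data. With fewer calls the Benjamini-Hochberg threshold is stricter, so these shares do not carry over to the data.

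Symbols were found for 52327 identifiers. The longest 3′ UTR of each gene (GENCODE 29, GRCh38, at least 50 bases) was searched in 13039 tested genes. Promoter sequences were from RefSeq. Named genes were the 10 largest rises and falls whose mean log2 CPM reached 2, the 6 most abundant of each, and up to 4 called members in each of 34 gene lists, and values of some of them are not reported here. The comparison, lists and genes were chosen with earlier results of these data known. Totals of 31894280 to 51434090 counts per library set the counting error, and with 3 libraries per group the spread between them limits the precision. Python 3.11.15 with pandas 2.3.3, numpy 2.4.6, scipy 1.17.1 and matplotlib 3.10.9 made the summaries and figures.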

Additional observations from a re-analysis of the deposited data

How the results depend on the processing

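The number of called genes (840, with 329 rises and 511 falls) moved with the test, the libraries and the unit. It was 1802 (814 and 988) with DESeq2, 1741 (824 and 917) with the replicate block, 461 (143 and 318) with only the 6 compared libraries in the fit and 403 (114 and 289) with the block in that fit, an alternative chosen after seeing the data. With limma it was 811 (323 and 488) on the counts (voom), 352 (105 and 247) on log2(FPKM + 0.1) and 345 (109 and 236) on log2(FPKM + 1). Without the filter on low counts 212 genes rose. Leaving out 1 library gave 402 to 654 calls, 115 to 240 rises and 287 to 444 falls. TBX2-AS1 kept its direction but missed the threshold without the filter (-3.25, adjusted p = 0.058), with 6 libraries (-3.27, 0.0668), with the block and 6 libraries (-3.56, 0.0982) and in 3 of 9 fits without 1 library, all by edgeR. Over all 9 of those fits its fold change was -3.71 to -2.79. TBX2 passed under none of the settings run. The share of falls with TTAAACT was 33.5% in the shortest 3′ UTR of each gene, 56.5% under the block and 82.8% among falls of at least 2-fold. The cause of these differences was not tested, beside the smaller number of libraries or UTR bases that some settings hold. The block ended the call of TAP1 among the genes named above.

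Of 953 values of named genes under settings that kept all libraries, 752 stayed on their side of the threshold and 201 lost the call; with 1 library left out, 510 of 783 stayed and 273 lost it. None changed direction. Of 679 list medians under other settings, 65 moved beyond the replicate spread and 49 had the other sign. Genes under about 1 CPM, such as KCNJ9 and TAP1 in the controls, rest on few counts.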
